A study of Mus musculus with 12 samples.

Results

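The genes described here are 45 genes of mitosis and the spindle, taken as a fixed list of symbols. The rule uses no measured value, but the list was drawn up with earlier results of these data known. A member was measured when the array held at least 1 probeset annotated to its symbol alone, and where it had several, the probeset with the highest mean over the 12 arrays was used. By this rule 43 of the 45 members were measured, among 17097 genes in all. Ccnb1 (cyclin B1) and Nuf2, a kinetochore subunit, had no such probeset and have no value below. RNA of mouse bone marrow mesenchymal stem cells (MSCs) was measured on 12 Affymetrix arrays. There were 3 arrays of p38α∆ MSCs treated with TGF-β, 2 of untreated p38α∆ MSCs, 3 of WT MSCs treated with TGF-β and 4 of untreated WT MSCs. All cells came from Mapk14 lox/lox mice with a tamoxifen-inducible Cre (FVB/NJ background in the labels), so the WT cells also carry the floxed gene of p38α and the inducible Cre. The MSCs were immortalized, and deletion was then induced with 4-hydroxytamoxifen for 2 days while the WT cells received vehicle, so that deletion and exposure to the drug cannot be told apart. TGF-β was given at 5 ng/ml for 20 h, and all groups were kept in 0.5% serum. The sources used here do not say that arrays of a group are separate cultures, and the p-values therefore measure the spread between these arrays, which may be technical.

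Cells divide in M phase, when cyclin B bound to CDK1 switches on mitosis, the CDC25 phosphatases activate that kinase, and the Polo and Aurora kinases build the spindle. Kinetochores tie chromosomes to spindle microtubules, the spindle checkpoint delays anaphase until they are attached, and CDC20 with the anaphase-promoting complex then triggers the destruction of cyclin B and of securin. The genes of these proteins are transcribed together in G2 and M phase, and their messages are low in cells that do not divide, which is why MKI67 and TOP2A serve as proliferation markers. In bulk RNA, fewer dividing cells and less message per dividing cell cannot be told apart.

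Values are log2 signals after RMA, a normalization that summarizes the probes of a probeset on a log scale. Each array has a number in its title: 1, 2 and 4 for TGF-β-treated p38α∆, 1 and 3 for p38α∆, 1, 3 and 4 for TGF-β-treated WT, and 1, 3, 4 and 4b for WT MSCs. Groups were compared in 1 limma fit over all genes with the number as a random block (4b counted as 4), and a gene passed at a Benjamini-Hochberg adjusted p under 0.05. The correlation estimated within a number was 0.488 in this fit, but 0.113 with the arrays numbered 1 left out, so it rested largely on those arrays. Because the fit weighs arrays of the same number against each other, its log2 fold change can differ from the difference of 2 group means. The chosen Mapk14 probeset, for p38α itself, read 9.27, 9.51 and 9.50 in TGF-β-treated p38α∆ and 9.01 and 9.03 in p38α∆, against 9.06, 9.31 and 9.32 in TGF-β-treated WT, and 8.95, 9.12, 9.07 and 9.11 in WT MSCs. It did not differ between p38α∆ and WT MSCs at the threshold, with TGF-β (log2 fold change 0.19, adjusted p = 0.508) or without it (0.00, adjusted p = 1.00). Where its 6 probesets lie relative to the deleted part is not given in the sources used here, so this does not check the labels, and groups carry the names of their labels. Of the MSC markers, Pdgfrb (8.58 to 9.63), Itgb1 (10.8 to 11.5) and Cd44 (9.67 to 10.8) were clearly measured, while Thy1 (3.14 to 3.55) and Eng (4.32 to 4.98) were low. The endothelial markers Pecam1 and Cdh5 stayed at or below 4.01 and 4.10. Of the leukocyte markers, Ptprc, Itgam and Cd3e stayed at or below 2.97, 3.51 and 3.40, while Cd14 read 4.36 to 4.99, about as high as Eng. Of the epithelial markers, Krt8 reached 4.81, Epcam 4.36, Krt18 4.34 and Cdh1 3.19.

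Over the members as a group, 2 of the 3 arrays of TGF-β-treated p38α∆ MSCs gave the lowest averages and the 3 arrays numbered 3 the highest. When each member was centered on its own mean over the 12 arrays, the average of the 43 members was −0.39, −0.09 and −0.21 in TGF-β-treated p38α∆ arrays 1, 2 and 4, and 0.00 and 0.29 in p38α∆ arrays 1 and 3. It was −0.15, 0.37 and −0.03 in TGF-β-treated WT arrays 1, 3 and 4, and 0.06, 0.15, 0.07 and −0.07 in WT arrays 1, 3, 4 and 4b. All 3 TGF-β-treated p38α∆ arrays thus lay below 0 and below both untreated p38α∆ arrays, while they overlapped with the TGF-β-treated WT arrays. The array number moved with these values in part: array 3 was the highest of its group for 35 of 43 members in TGF-β-treated WT and for 27 in p38α∆ MSCs, and array 3 of TGF-β-treated WT was the highest of all 12 for 16 members. In untreated WT MSCs, array 1 was more often the highest of its group, for 21 members against 14 for array 3, and it was the highest of all 12 for 12 members. TGF-β-treated p38α∆ MSCs have no array numbered 3, and their array 1 was the lowest of all 12 for 20 members. The part of the array number in the comparisons with that group was not tested beyond the values given with each.

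**Figure D1:**
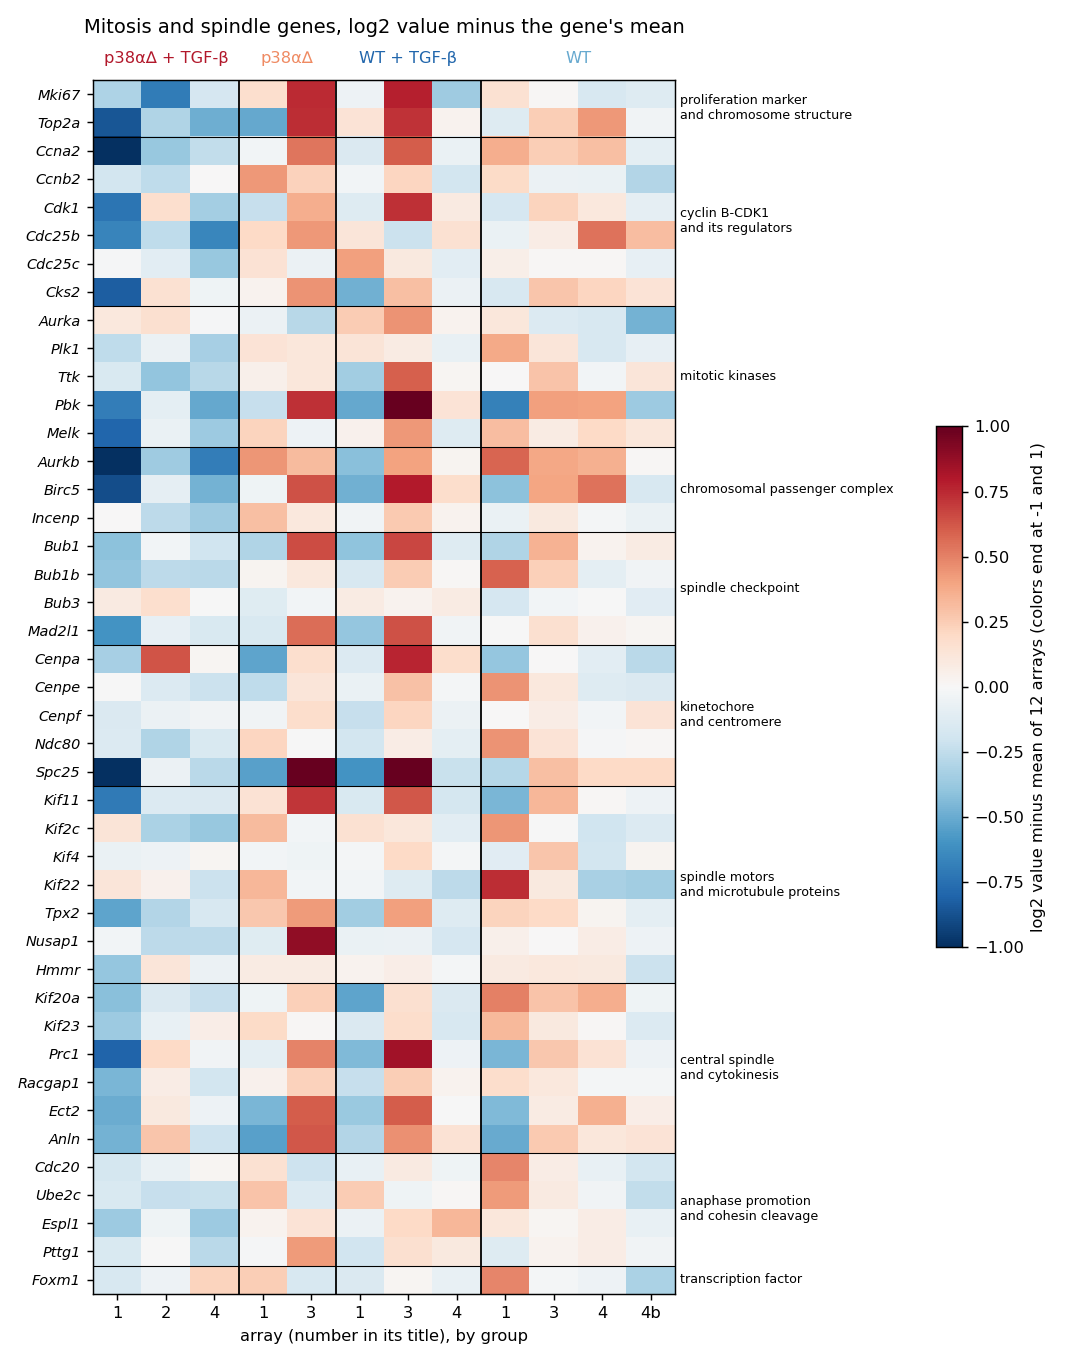
Log2 value of each of the 43 measured mitosis and spindle genes (rows, by role) in each of the 12 arrays (columns, by group, with the array's number), minus the gene's mean over the 12 arrays, with red above and blue below that mean and colors ending at −1 and 1. The 3 columns of TGF-β-treated p38α∆ MSCs are mostly blue (averages −0.39, −0.09 and −0.21), and the array 3 columns of p38α∆ and TGF-β-treated WT MSCs are mostly red (0.29 and 0.37).

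In p38α∆ MSCs, TGF-β lowered 2 of the 43 members past the threshold, the kinase gene Aurkb and the phosphatase gene Cdc25b, and raised none. The other 41 did not pass, although 38 of the 43 log2 fold changes lay below 0, with a median of −0.32, where the median over all genes was −0.003 and 50.8% of genes lay below 0. Over all genes, 4.97% were called lower and 3.43% higher in this comparison, so that the 2 of 43 called lower (4.65%) are close to the share of all genes. At an unadjusted p under 0.05, 17 members were lower and 1 was higher, where 11.8% of all genes were lower and 8.17% higher. The 3 TGF-β-treated arrays all lay below both untreated arrays for 17 members (39.5%), against 12.2% of all genes, and all lay above for 2 members, Aurka and Bub3, against 9.67% of all genes.

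Aurkb is the kinase of the chromosomal passenger complex, which corrects faulty kinetochore attachments and acts in cytokinesis. Its log2 values were 5.24, 5.95 and 5.61 in TGF-β-treated p38α∆ arrays 1, 2 and 4, against 6.75 and 6.63 in p38α∆ arrays 1 and 3. The groups did not overlap, and the log2 fold change was −1.10 (SE 0.24, adjusted p = 0.0126 in limma), a ratio of 0.466. Its other probeset gave −1.25 in a fit over all probesets. The chosen Aurkb probeset ends in _s_at and the other in _x_at, suffixes that Affymetrix gives to probes that can match more than 1 transcript. The value may therefore not be that of Aurkb alone. The chosen probesets of Bub3, Pbk, Prc1 and Pttg1 also end in _s_at. The Aurkb call in limma was lost without TGF-β-treated array 1 (−0.86, adjusted p = 0.0912) and without p38α∆ array 1 (−0.88, adjusted p = 0.188).

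Cdc25b encodes a phosphatase that starts the activation of CDK1 at entry into mitosis. It read 5.84, 6.24 and 5.84 in TGF-β-treated p38α∆ arrays 1, 2 and 4, against 6.70 and 6.93 in p38α∆ arrays 1 and 3. All treated arrays were lower than both untreated ones, and the log2 fold change was −0.99 (SE 0.17, adjusted p = 0.00339 in limma), a ratio of 0.505. It stayed called with any single array left out, with log2 fold changes of −1.15 to −0.85. Neither gene passed once the 3 arrays numbered 3 were removed, an alternative added after seeing the values: Cdc25b was at −0.86 (adjusted p = 0.0836) and Aurkb at −1.26 (adjusted p = 0.069). Within number 1, the 1 number with an array of both groups, the differences were −0.86 for Cdc25b and −1.51 for Aurkb, and 37 of the 43 members lay below 0 (median −0.40). Of all genes, 53.5% lay below 0 within that number.

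The other members of the passenger complex did not pass. Birc5 (survivin), which brings the kinase to the centromere, read 5.37, 6.17 and 5.78 in TGF-β-treated p38α∆ and 6.21 and 6.89 in p38α∆ MSCs (log2 fold change −0.76, SE 0.26, adjusted p = 0.110). Incenp, the scaffold of the complex, had −0.34 (adjusted p = 0.133). For both genes the treated arrays lay below the untreated ones.

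Among the cyclins and CDK1 regulators, all 6 measured members lay below 0, with a median log2 fold change of −0.47, and only Cdc25b passed. Ccna2 (cyclin A2), which acts in S phase and early mitosis, read 6.13, 6.85 and 6.99 in TGF-β-treated p38α∆ and 7.21 and 7.77 in p38α∆ MSCs (−0.78, SE 0.25, adjusted p = 0.0872). Cdk1, the kinase that drives entry into mitosis, read 7.17, 8.06 and 7.56 in TGF-β-treated p38α∆ and 7.67 and 8.26 in p38α∆ MSCs (−0.35, SE 0.19, adjusted p = 0.356). The treated arrays of Ccna2 were the lower ones throughout, whereas those of Cdk1 overlapped with the untreated arrays. Ccnb2 (cyclin B2) had a log2 fold change of −0.40 and Cks2, a small subunit that binds CDKs, one of −0.53, and neither passed.

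Of the proliferation markers, Mki67 read 4.60, 4.21 and 4.74 in TGF-β-treated p38α∆ and 5.08 and 5.66 in p38α∆ MSCs (−0.60, SE 0.25, adjusted p = 0.191). Top2a, the topoisomerase that untangles chromosomes, read 5.31, 5.87 and 5.68 in TGF-β-treated p38α∆ and 5.65 and 6.90 in p38α∆ MSCs (−0.58, SE 0.25, adjusted p = 0.213). Untreated array 1 of Top2a lay among the treated arrays, and the high untreated value is that of array 3. Neither of the other Top2a probesets, at 0.24 and 0.10, had a log2 fold change below 0.

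**Figure D2:**
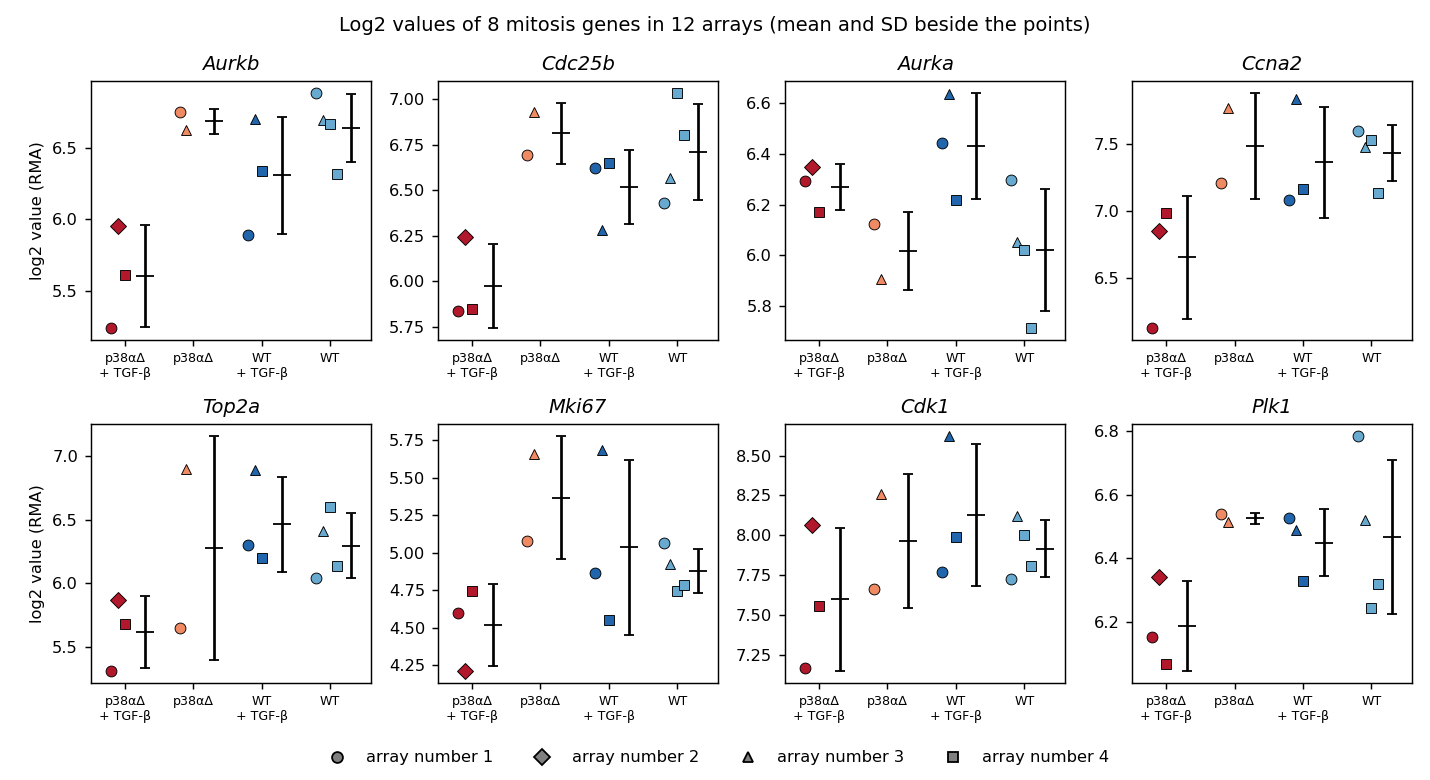
Log2 values (vertical axis) of 8 mitosis genes in TGF-β-treated p38α∆, p38α∆, TGF-β-treated WT and WT MSCs (horizontal axis), 1 point per array, shaped by number (4b as 4), and the mean with SD of each group beside the points. For Aurkb and Cdc25b the 3 TGF-β-treated p38α∆ arrays (5.24 to 5.95 and 5.84 to 6.24) lie below both p38α∆ arrays, and for Mki67, Top2a, Cdk1 and Ccna2 the triangles of array 3 are the highest in p38α∆ and TGF-β-treated WT MSCs.

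The mitotic kinases outside the passenger complex lay on both sides of 0. Plk1, the Polo kinase of centrosomes and kinetochores, read 6.15, 6.34 and 6.07 in TGF-β-treated p38α∆ and 6.54 and 6.51 in p38α∆ MSCs (−0.30, SE 0.12, adjusted p = 0.176). Aurka, the Aurora kinase of centrosomes and spindle poles, lay on the other side of 0: it read 6.29, 6.35 and 6.17 in TGF-β-treated p38α∆ and 6.13 and 5.91 in p38α∆ MSCs (0.32, SE 0.14, adjusted p = 0.220). The treated arrays of Aurka were the higher ones and those of Plk1 the lower ones. Melk, a kinase of proliferating cells, had −0.54, the checkpoint kinase gene Ttk −0.22, and Pbk, a kinase active in mitosis, −0.53, none of them past the threshold.

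Among the 7 spindle motors and microtubule proteins, none passed. The log2 fold change of Kif11, the motor that pushes spindle poles apart, was −0.67 (SE 0.19, adjusted p = 0.0526), and that of Tpx2, which activates Aurora A and nucleates microtubules, was −0.59 (SE 0.17, adjusted p = 0.0585). These were the members nearest the threshold, and for both the treated arrays lay below the untreated ones. The 6 genes of the central spindle and cytokinesis lay between −0.39 for Prc1, which bundles midzone microtubules, and −0.17 for Anln, a scaffold of the contractile ring. In the spindle checkpoint Bub1, Bub1b and Mad2l1 lay between −0.41 and −0.26, while Bub3 had 0.14. Kinetochore and centromere genes were the most mixed group, at −0.66 for Spc25, a subunit of the NDC80 complex, and 0.29 for Cenpa, the histone variant that marks centromeres. The motor genes Kif2c, whose product takes microtubules apart at kinetochores, and Kif23, of the central spindle, had −0.23 and −0.20, and Racgap1, the partner of Kif23, had −0.33. Besides Aurka, Cenpa and Bub3, the members above 0 were Cenpe, a kinetochore motor, and Kif4, a chromosome motor, both at 0.07. In a fit over all probesets, the other probesets gave −0.08 for Cenpa, −0.17 for Cenpe and 0.04, −0.10 and −0.04 for Bub3. Separase (Espl1, −0.39) and its inhibitor securin (Pttg1, −0.34) lay below 0. Cdc20, the activator of the anaphase-promoting complex, was near 0 (−0.02), with 7.13, 7.24 and 7.32 in TGF-β-treated p38α∆ and 7.46 and 7.09 in p38α∆ MSCs. Foxm1, a transcription factor that switches on many G2 and M phase genes, was also near 0 (−0.02), at 5.84, 5.95 and 6.22 in TGF-β-treated p38α∆ and 6.25 and 5.84 in p38α∆ MSCs. Other Foxm1 probesets gave −0.24, −0.215 and −0.11 in a fit over all probesets, so the value near 0 holds for the chosen probeset only.

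When both genotypes had received TGF-β, none of the 43 members passed between p38α∆ and WT MSCs. Over all genes 0.368% were called higher and 0.0819% lower. By limma at an unadjusted p under 0.05, 12 members were lower and 0 higher, where 4.06% of all genes were lower and 4.54% higher. The log2 fold changes lay below 0 for 40 of 43 members, with a median of −0.23, against 51.8% of all genes and a median of −0.01. Groups did not overlap for 5 members (11.6%), all lower in p38α∆ MSCs, against 3.45% of all genes lower and 5.26% higher: Top2a, Ccna2, Cdc25b, Bub1b and Ube2c.

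The members with the largest t statistic were Cdc25b, Espl1 and Aurkb. Cdc25b read 5.84, 6.24 and 5.84 in TGF-β-treated p38α∆ MSCs, against 6.62, 6.28 and 6.65 in the treated WT arrays, and its log2 fold change was −0.63 (SE 0.15, adjusted p = 0.112). The highest p38α∆ value and the lowest WT value lay close to each other, at 6.24 and 6.28. Espl1, the protease that cuts cohesin at anaphase, read 4.73, 5.05 and 4.73 in treated p38α∆ and 5.04, 5.30 and 5.43 in treated WT cells (−0.46, SE 0.11, adjusted p = 0.119). Aurkb read 5.24, 5.95 and 5.61 in treated p38α∆ and 5.89, 6.71 and 6.34 in treated WT cells (−0.74, SE 0.21, adjusted p = 0.209). The 2 groups overlapped for both genes.

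Top2a had the most negative log2 fold change, with 5.31, 5.87 and 5.68 in treated p38α∆ and 6.30, 6.89 and 6.20 in treated WT cells (−0.78, SE 0.22, adjusted p = 0.210 in limma). This holds for the chosen probeset, since the other Top2a probesets gave 0.21 and −0.15 in a fit over all probesets. Ccna2 read 6.13, 6.85 and 6.99 in treated p38α∆ and 7.09, 7.84 and 7.17 in treated WT cells (−0.67, SE 0.22, adjusted p = 0.320). For both genes every p38α∆ array lay below every WT array. Cdk1, at 7.17, 8.06 and 7.56 in treated p38α∆ and 7.77, 8.62 and 7.99 in treated WT cells, had −0.53 (SE 0.17, adjusted p = 0.289), with 1 p38α∆ array inside the WT range.

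Mki67 read 4.60, 4.21 and 4.74 in treated p38α∆ and 4.86, 5.69 and 4.55 in treated WT cells, and its groups overlapped (−0.35, SE 0.22, adjusted p = 0.761). Plk1 read 6.15, 6.34 and 6.07 in treated p38α∆ and 6.53, 6.49 and 6.33 in treated WT cells (−0.28, SE 0.10, adjusted p = 0.418). Aurka was at −0.16, Cdc20 at −0.07 and Foxm1 at 0.07, and none of the 3 passed. Besides Foxm1, the members above 0 were Kif22, a motor that moves chromosome arms (0.10), and Bub3 (0.01). Their signs depend on the probeset. In a fit over all probesets, other probesets reached down to −0.22 for Foxm1, −0.16 for Kif22 and −0.29 for Bub3. Further probesets of Foxm1 (0.013) and Bub3 (0.005) stayed above 0.

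The direction was shared by both numbers that hold an array of each genotype, but was smaller there. Within number 1, 33 of 43 members lay below 0 with a median of −0.19, and within number 4, 32 lay below 0 with a median of −0.12. Of all genes, 51.8% and 51.9% lay below 0 within these numbers. The differences within numbers 1 and 4 were −0.78 and −0.80 for Cdc25b, −0.65 and −0.72 for Aurkb, and −0.95 and −0.18 for Ccna2. After removal of the arrays numbered 3, the median over the members was −0.12 with 37 below 0. In the same comparison the MSC markers had a median of 0.01 and the endothelial, leukocyte and epithelial markers medians of 0.08, 0.15 and 0.02, with none of the 20 measured markers past the threshold.

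**Figure D3:**
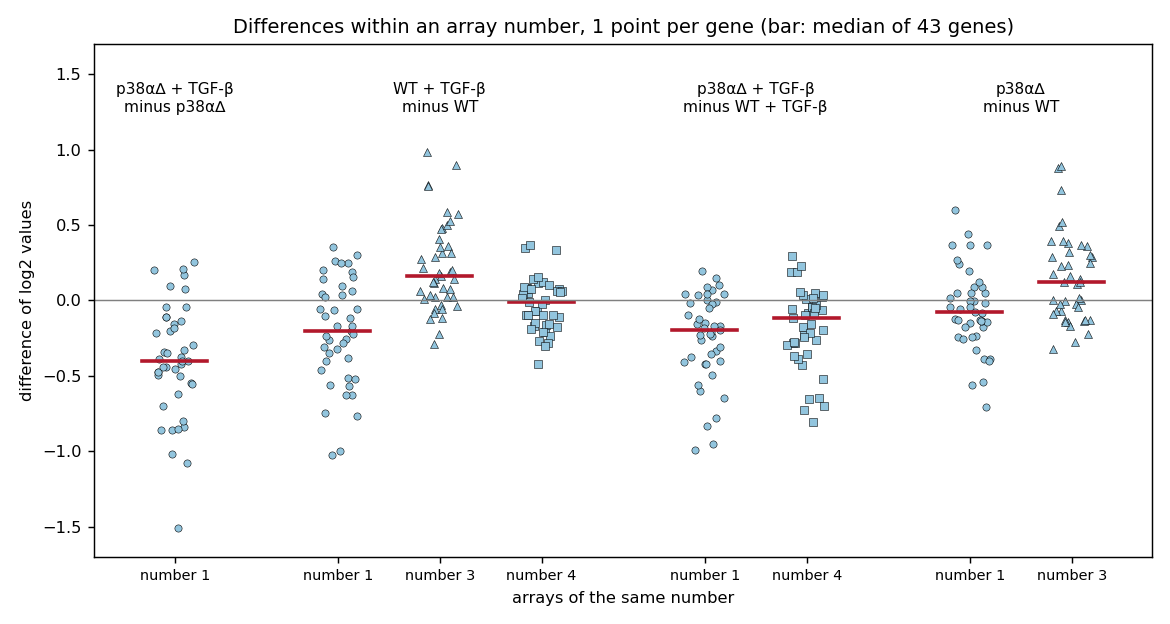
Differences of log2 values (vertical axis) between arrays of the same number (horizontal axis), for 4 pairs of groups, with 1 point for each of the 43 genes and a red bar at their median. WT arrays 4 and 4b were averaged. The medians are −0.40 within number 1 for TGF-β in p38α∆ MSCs, −0.20, 0.16 and −0.01 within numbers 1, 3 and 4 for TGF-β in WT MSCs, −0.19 and −0.12 within numbers 1 and 4 for p38α∆ against WT with TGF-β, and −0.08 and 0.12 within numbers 1 and 3 without it.

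The response to TGF-β was not shown to differ between the genotypes for any member. In the interaction term of limma, the response of p38α∆ minus that of WT MSCs, 0 of 43 members passed, and over all genes 0% were called in either direction. At an unadjusted p under 0.05, 11 members were lower and 0 higher, where 2.67% of all genes were lower and 2.71% higher. The difference lay below 0 for 36 of 43 members, with a median of −0.29, against 50.1% of all genes below 0. Cdc25b had the largest t statistic (−0.82, SE 0.22, adjusted p = 0.640), followed by Kif11 (−0.80, SE 0.25, adjusted p = 0.794) and Espl1 (−0.52, SE 0.16, adjusted p = 0.794).

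In WT MSCs, the members were spread evenly around 0 after TGF-β. Aurka alone passed, as higher, and 42 members did not, with 21 log2 fold changes above 0, 22 below and a median of −0.01, which is also the median over all genes. Over all genes 4.02% were called higher and 5.36% lower. At an unadjusted p under 0.05, 2 members were higher and 2 lower, where 8.66% of all genes were higher and 12.4% lower, so that a smaller share of the members than of all genes lay past it. Groups did not overlap for Bub3, with the treated arrays higher, and for Nusap1, with the treated arrays lower, against 5.37% and 7.99% of all genes in those directions.

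Aurka read 6.44, 6.64 and 6.22 in TGF-β-treated WT arrays 1, 3 and 4, against 6.30, 6.05, 6.02 and 5.72 in WT arrays 1, 3, 4 and 4b. The groups overlapped, since WT array 1 exceeded treated array 4. The log2 fold change was 0.38 (SE 0.11, adjusted p = 0.0454 in limma), a ratio of 1.30. Within each number the treated array was the higher one, by 0.14, 0.58 and 0.35, the last against the mean of WT arrays 4 and 4b. The call lay close to the threshold and was lost under 19 of the 24 alternatives, with adjusted p-values up to 0.352. In p38α∆ MSCs the log2 fold change of Aurka was 0.32, and the interaction term for it was −0.06 (SE 0.18, adjusted p = 0.985).

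The members with the next largest t statistics did not pass. Kif20a, a motor of the central spindle, read 6.05, 6.74 and 6.43 in TGF-β-treated WT and 7.08, 6.86, 6.94 and 6.54 in WT MSCs (−0.46, SE 0.15, adjusted p = 0.0778). Cenpa read 6.61, 7.51 and 6.92 in TGF-β-treated WT and 6.36, 6.75, 6.63 and 6.47 in WT MSCs (0.45, SE 0.15, adjusted p = 0.0982). Both pairs of groups overlapped.

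The members used as markers of division also overlapped between treated and untreated WT MSCs. Mki67 read 4.86, 5.69 and 4.55 in TGF-β-treated WT and 5.07, 4.92, 4.75 and 4.78 in WT MSCs (0.12, SE 0.19, adjusted p = 0.808). Top2a read 6.30, 6.89 and 6.20 in TGF-β-treated WT and 6.04, 6.41, 6.60 and 6.13 in WT MSCs (0.16, SE 0.19, adjusted p = 0.714). In both genes the highest treated value is that of array 3. Cdk1 read 7.77, 8.62 and 7.99 in TGF-β-treated WT and 7.73, 8.12, 8.00 and 7.81 in WT MSCs (0.20, SE 0.15, adjusted p = 0.5004). Aurkb read 5.89, 6.71 and 6.34 in TGF-β-treated WT and 6.89, 6.70, 6.67 and 6.32 in WT MSCs (−0.34, SE 0.18, adjusted p = 0.326). Array 1 of TGF-β-treated WT MSCs was the low one for Aurkb. The differences within numbers 1, 3 and 4 were −0.999, 0.01 and −0.15, the last with WT arrays 4 and 4b averaged.

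Plk1, Cdc20, Cdc25b and Foxm1 lay between −0.16 and −0.05 in this comparison, with adjusted p-values of 0.832, 0.742, 0.557 and 0.785. The numbers went in different directions over the members. Within number 1, 29 of 43 lay below 0 (median −0.20), within number 3 only 9 (median 0.16), and within number 4, with WT arrays 4 and 4b averaged, 23 (median −0.01). Of all genes, 51.8%, 60.1% and 49.1% lay below 0 within numbers 1, 3 and 4.

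Without TGF-β, p38α∆ and WT MSCs did not differ past the threshold for any member, nor for any gene (0% called in either direction). At an unadjusted p under 0.05, limma gave 2 members higher and 0 lower, where 2.88% of all genes were higher and 2.04% lower. The median log2 fold change was 0.03, with 25 of 43 members above 0, and groups did not overlap for 4 members (9.30%), all higher in p38α∆ MSCs, against 3.52% of all genes higher and 3% lower. These were Mki67, Ccnb2, Incenp and Tpx2. With 2 p38α∆ arrays the standard errors were 0.08 to 0.33, so that small differences were not detectable.

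The largest t statistics belonged to Kif11, Ccnb2 and Pttg1. Kif11 read 5.11 and 5.68 in p38α∆ and 4.51, 5.30, 4.98 and 4.92 in WT MSCs (0.45, SE 0.17, adjusted p = 0.982). Ccnb2 read 5.63 and 5.42 in p38α∆ and 5.39, 5.13, 5.13 and 4.90 in WT MSCs (0.33, SE 0.14, adjusted p = 0.982). Pttg1 read 8.70 and 9.14 in p38α∆ and 8.58, 8.75, 8.78 and 8.68 in WT MSCs (0.23, SE 0.11, adjusted p = 0.982). Of these 3 genes Ccnb2 alone had both p38α∆ arrays above all WT arrays.

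Mki67 read 5.08 and 5.66 in p38α∆ and 5.07, 4.92, 4.75 and 4.78 in WT MSCs (0.37, SE 0.22, adjusted p = 0.982), and its lower p38α∆ value and highest WT value were almost equal. Aurkb read 6.75 and 6.63 in p38α∆ and 6.89, 6.70, 6.67 and 6.32 in WT MSCs (0.02, SE 0.21, adjusted p = 1.00). Cdc25b read 6.70 and 6.93 in p38α∆ and 6.43, 6.57, 7.04 and 6.80 in WT MSCs (0.20, SE 0.15, adjusted p = 0.982). Both of these genes, which TGF-β lowered in p38α∆ MSCs, overlapped between the untreated genotypes. Plk1 (−0.03), Cdc20 (−0.16), Cdk1 (0.03), Aurka (−0.11), Top2a (−0.04) and Foxm1 (−0.02) were likewise not called. Within number 1 the median over the members was −0.08 and within number 3 it was 0.12.

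**Figure D4:**
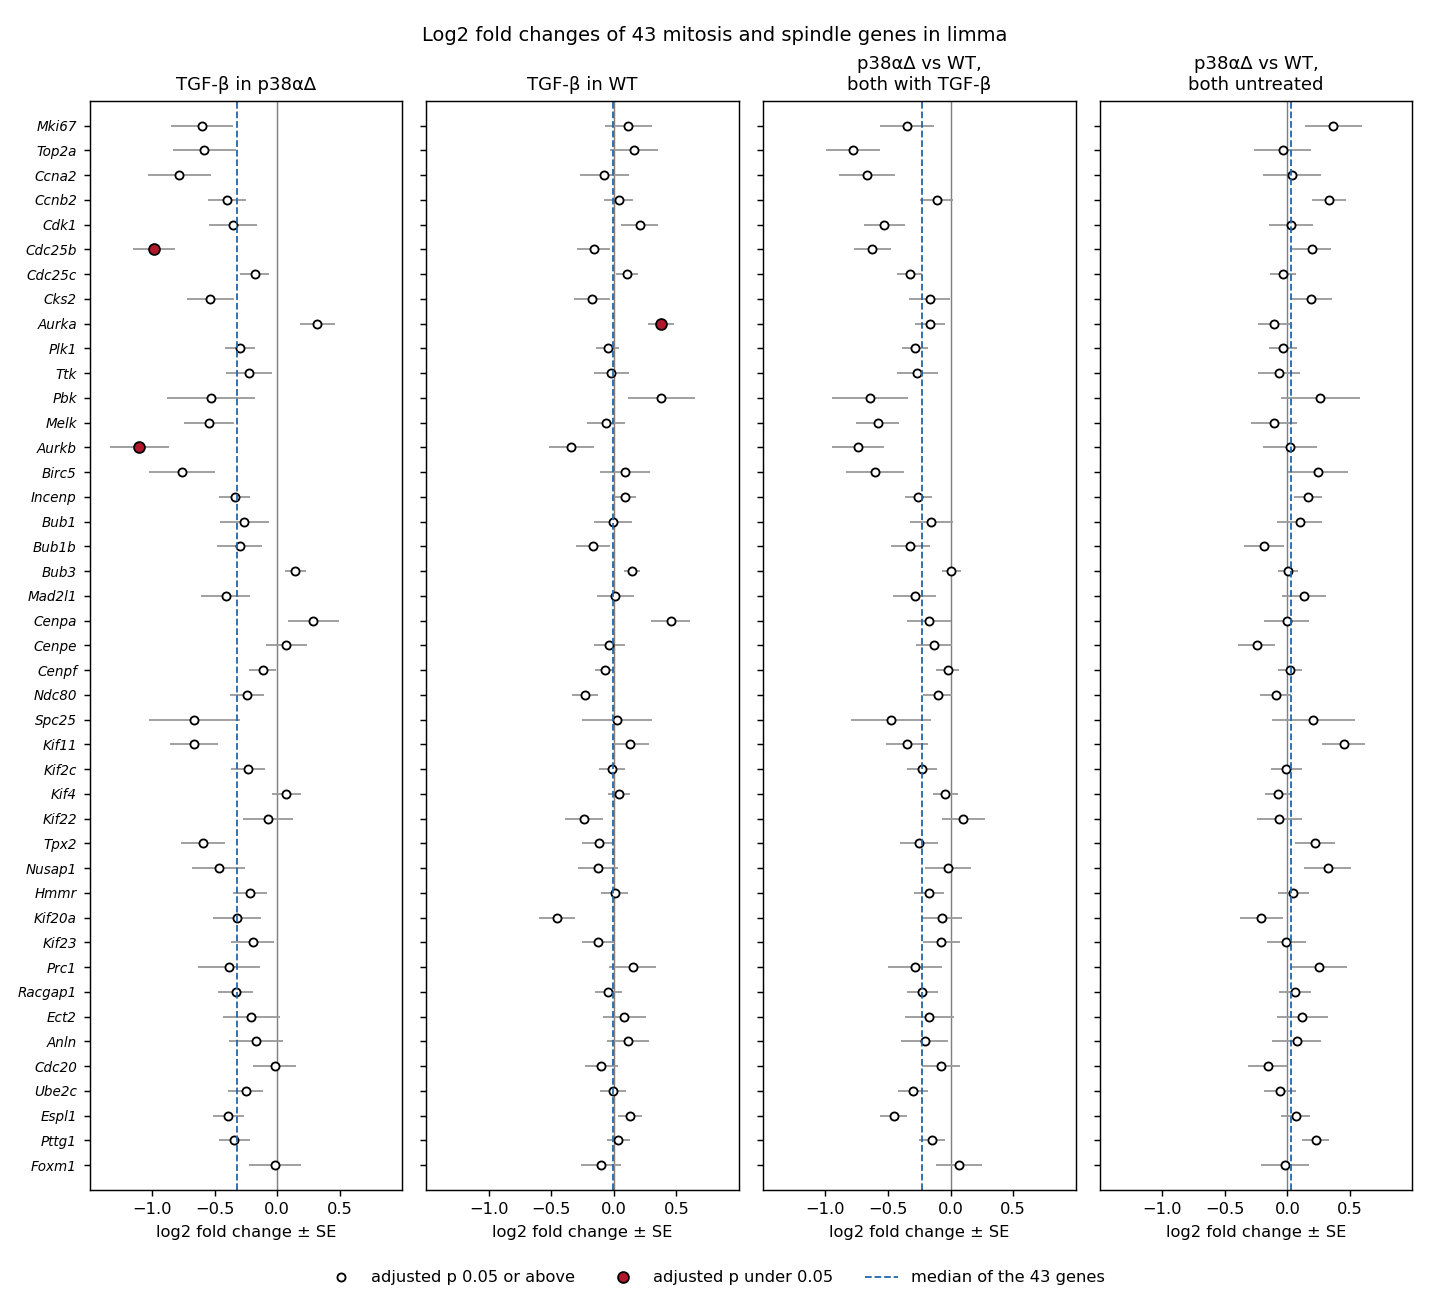
Log2 fold change with SE in limma (horizontal axis) of each of the 43 genes (rows, by role) for TGF-β in p38α∆ MSCs, TGF-β in WT MSCs, and p38α∆ against WT with and without TGF-β, with red points at an adjusted p under 0.05 and a dashed line at the median of the 43 genes. Aurkb (−1.10) and Cdc25b (−0.99) are red in the first panel and Aurka (0.38) in the second, and the medians are −0.32, −0.01, −0.23 and 0.03.

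Other mitosis genes were taken from lists written from general knowledge, and their calls stand beside 3.43% of all genes called higher and 4.97% lower by TGF-β in p38α∆ MSCs, and 4.02% higher and 5.36% lower in WT MSCs. In p38α∆ MSCs treated with TGF-β, of 33 other kinetochore and centromere genes 1 was called higher (Zwint, which docks checkpoint proteins, 0.46, adjusted p = 0.00297) and 3 lower. Those 3 were Oip5 (−0.50), which helps to load CENPA, Sgo1 (−0.37), the protector of centromeric cohesin, and Pmf1 (−0.34), of the MIS12 complex. None of 29 other spindle and cytokinesis genes passed (median −0.10), and of 16 condensin and cohesin genes 1 did, Cdca5 (sororin, −0.78, adjusted p = 0.0471), which stabilizes cohesion. Of 22 other regulators of entry and exit, Cdc23 (−0.53), a subunit of the anaphase-promoting complex, Cdca3 (−0.53), a trigger of mitotic entry, and Pkmyt1 (−0.44), a kinase that inhibits CDK1, were called lower. Wee1 (0.43), another inhibitory kinase of CDK1, was called higher. In WT MSCs treated with TGF-β, the calls in these 4 lists were Zw10 (0.39), Kpna2 (0.70) and Wee1 (0.40) as higher and Mad1l1 (−0.44) as lower. None of their 100 measured genes passed between p38α∆ and WT MSCs in either condition.

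The same fit was read for genes that act before mitosis. Of 24 G1/S and replication genes, 5 were called lower by TGF-β in p38α∆ MSCs, where 4.97% of all genes were, and none higher (median −0.40): Tk1 (−1.17, adjusted p = 0.0221), thymidine kinase, the helicase subunits Mcm7 (−0.88) and Mcm5 (−0.85), Mcm10 (−0.59) and the licensing factor Cdt1 (−0.42). In WT MSCs, TGF-β raised 4, where 4.02% of all genes were called higher, and lowered none (median 0.03): Rrm2 (0.93, adjusted p = 0.00499), a subunit of ribonucleotide reductase, the licensing factor Cdc6 (0.82), Mcm6 (0.55) and Uhrf1 (0.47), which maintains DNA methylation. Between p38α∆ and WT MSCs with TGF-β, 3 of the 24 were called lower, where 0.0819% of all genes were: Mcm7 (−0.79, adjusted p = 0.0171), Uhrf1 (−0.78, adjusted p = 0.0357) and Cdt1 (−0.56, adjusted p = 0.0316). The interaction term called none of the 24.

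Of 10 D cyclins and CDK inhibitors, TGF-β lowered 3 in p38α∆ MSCs, where 4.97% of all genes were called lower: Cdkn1a (p21, −1.02), Cdkn1b (p27, −0.97) and Cdkn2b (p15, −0.71). In WT MSCs, where 5.36% of all genes were called lower, it lowered 5 of the 10, among them Cdkn1c (p57, −0.64), Cdkn1a (−0.58) and the cyclins Ccnd1 (−0.44) and Ccnd2 (−0.37). Of 10 genes of the DREAM and MYB-MuvB complexes, which repress and activate mitosis genes, Rbl2 (p130), a pocket protein of the repressor, was called lower in p38α∆ (−1.18) and in WT MSCs (−0.90).

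Across the 12 arrays most members varied together. The Pearson correlation of a member with the mean of the other members had a median of 0.71, and 13 members exceeded 0.8, led by Mad2l1 (0.94), Ccna2 (0.93), Racgap1 (0.91) and Tpx2 (0.91). It was below 0 for Bub3 (−0.29), Aurka (−0.02) and Kif22 (−0.01), and low for Foxm1 (0.08), Kif2c (0.14) and Cdc25c (0.15). These correlations are descriptions, since the points share the array number and the 4 groups. Some members were measured near the bottom of the scale: Kif23 (2.89 to 3.58), Ect2 (2.82 to 3.93) and Nusap1 (3.23 to 4.38) reach down to or below the lower quartile of all probesets, which lay at 3.31 to 3.41 in the arrays. Of 23 members with more than 1 probeset, the 35 further probesets had the same sign as the chosen one for 23 in the TGF-β comparison of p38α∆ MSCs and for 22 between the TGF-β-treated genotypes.

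The start regions of these genes are known for CCAAT boxes, which the factor NF-Y binds, and for TTTGAA or TTCGAA elements, which the DREAM and MYB-MuvB complexes bind. The 250 bases before a start were searched on both strands in RefSeq windows (GRCm38.p6), matched by symbol for 37 of the 45 members. CCAAT was found for 28 members (75.7%), against 33.8% of 32851 windows of all genes. A member counted when any of its windows held the letters (40 windows for the 37 members), whereas the share over all genes is per window. At least 2 CCAAT were found for 19 members (51.4%), against 10.1%. TTTGAA was found for 13 members (35.1%), against 16% of windows, and TTCGAA for 2 (5.41%), against 1.34%. Shown here are the 110 bases before a RefSeq start of 6 members of the CDK1, kinase and anaphase groups. Among them are Cdc25b and Aurka, which passed in a TGF-β comparison (Aurkb has no such window). For Cdc25b and Aurka the start used lies inside the gene's full span (chr2:131186436-131198511 and chr2:172356190-172370886). Their stretches therefore lie within the gene and not before its outermost start. All stretches run 5′ to 3′ toward the start used on the gene's strand, with CCAAT or its complement ATTGG and TTTGAA in capitals.
Ccnb2 (chr9:70421555-70421664, minus strand): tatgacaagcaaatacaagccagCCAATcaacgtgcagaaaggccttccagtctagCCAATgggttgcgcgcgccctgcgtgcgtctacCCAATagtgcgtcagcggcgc
Cdk1 (chr10:69352913-69353022, minus strand): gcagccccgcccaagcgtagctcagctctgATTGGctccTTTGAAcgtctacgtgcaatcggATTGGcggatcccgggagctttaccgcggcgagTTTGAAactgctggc
Cdc25b (chr2:131186838-131186947, plus strand): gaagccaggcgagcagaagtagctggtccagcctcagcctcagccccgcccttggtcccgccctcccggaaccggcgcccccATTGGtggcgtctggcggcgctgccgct
Plk1 (chr7:122159325-122159434, plus strand): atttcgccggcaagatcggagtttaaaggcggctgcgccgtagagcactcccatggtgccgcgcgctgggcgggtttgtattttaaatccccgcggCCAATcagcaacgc
Aurka (chr2:172370571-172370680, minus strand): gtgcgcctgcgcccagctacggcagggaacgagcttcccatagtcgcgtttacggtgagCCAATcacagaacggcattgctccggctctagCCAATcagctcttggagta
Cdc20 (chr4:118437344-118437453, minus strand): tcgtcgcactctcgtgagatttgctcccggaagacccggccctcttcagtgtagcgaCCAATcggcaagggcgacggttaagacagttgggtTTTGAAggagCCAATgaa
In these 6 stretches Ccnb2 has 3 CCAAT, Cdk1, Aurka and Cdc20 have 2 each, and Cdc25b and Plk1 have 1 each, while TTTGAA occurs 2 times in Cdk1 and 1 time in Cdc20. The members shown were chosen among those that hold the searched letters, so that each holds some follows from the choice. The median log2 fold change for TGF-β in p38α∆ MSCs was −0.33 for the 14 measured members with TTTGAA or TTCGAA and −0.26 for the 21 without. For CCAAT it was −0.26 for the 27 with and −0.38 for the 8 without. For TTTGAA or TTCGAA, the medians with and without were −0.29 and −0.17 between p38α∆ and WT MSCs with TGF-β, and 0.10 and −0.02 for TGF-β in WT MSCs. These are letter matches, given as a description and without a test.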

How the data were processed

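The deposited table holds log2 values of 45101 probesets on 12 Affymetrix MG-430 PM arrays, which the authors made from the scanner files by RMA background correction, normalization and summarization in R (versions not given in the sources used here). Quality checks by the authors excluded no array. The values were used as deposited. Of the probesets, 28898 have 1 symbol in the platform annotation (updated through RefSeq, GRCm38.p6), 551 several and 15652 none in it. Per symbol the probeset with the highest mean was kept, giving 17097 genes with no filter on low values. Medians over all probesets were 4.22 to 4.27 per array. The study's methods adjust for scanning batch, which no source used here gives per array, and the array number was used as a random block.

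Groups come from the labels. limma (version 3.58.1, R 4.3.3) was fitted to all 12 arrays with duplicateCorrelation and eBayes (8 residual degrees of freedom), and tested 5 contrasts, two-sided, with Benjamini-Hochberg adjustment over all genes at 0.05. Fitting was tested on simulated data. WT arrays 4 and 4b differed by a median of 0.0909, about as much as arrays 3 and 4 (0.0949), and were kept apart. WT array 1 differed more from arrays 3, 4 and 4b, by medians of 0.2159, 0.2252 and 0.2209. The number of arrays limits the precision.

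The members and the lists were chosen with earlier results of these data known. Values are given for Mki67, Top2a, Cdk1, Plk1, Aurkb, Cdc20 and Foxm1, for called members and, in a comparison with none called, for the 3 with the largest t. Other genes named by value (such as Ccna2 and Kif20a) were chosen after their values were seen. Alternatives were another block, probeset, filter, scaling or trend, fewer arrays, and each array left out. Promoter windows come from RefSeq. Figures were drawn with matplotlib 3.10.9.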

Additional observations from a re-analysis of the deposited data

Results flagged for a closer look

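One value stood apart within its group: Hmmr, a protein that binds hyaluronan and spindle microtubules, was lowest in WT array 4b at 3.77, while the other 3 WT arrays read 4.08, 4.09 and 4.08. The gap to the nearest array was 0.955 of the range of the group, above the critical value of Dixon's test. It was 1 of 43 sets of WT arrays tested, where chance is expected to give about 1 in 20, or 2.15.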

How the results depend on the processing

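In p38α∆ MSCs, the number of members that TGF-β moved past the threshold was 2 in the reported fit. It was 4 with the replicate block as a fixed term, 4 with genes below the 25th percentile left out, 5 after quantile normalization, 0 with only the arrays of these 2 groups and 0 without the arrays numbered 3, the last chosen after the data were seen. Over all genes, 1436 passed in the reported fit, 1376 with the fixed term, 1533 with that filter and 1442 after quantile normalization. With each array left out in turn, 2 to 6 members passed, where 698 to 1644 of all genes did. Every member called in these settings was lower. Cdc25b kept its call in 22 of 24 alternatives and Aurkb in 19. In WT MSCs the count of 1 became 0 with no replicate block, with all probesets tested, with array medians made equal, with WT arrays 4 and 4b averaged, with only these groups' arrays, without the arrays numbered 1, with an intensity trend and without the arrays numbered 3, and was 0 to 1 with each array left out. The gene called was Cenpa with the fixed block and after quantile normalization, and Kif20a (lower) without WT array 4b. Between the genotypes with TGF-β the count of 0 became 1 (Cdc25b, −0.70, adjusted p = 0.0478) with only these groups' arrays, and otherwise stayed 0, as it did in all alternatives without TGF-β and for the interaction (0 to 0 with each array left out). No median over the members moved by more than 0.18, the spread of the members' average between arrays of a group, which is wide beside the medians themselves. Smaller shifts did occur. For TGF-β in WT MSCs, 36 members lay above 0 without the arrays numbered 1 (median 0.10), and 29 lay below 0 without the arrays numbered 3 (median −0.12).

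The labels do not say that the array numbers pair the samples, and not every pair reached 0.1. Deviations from group means correlated at 0.02 to 0.85 (median 0.68) for 14 pairs of arrays with the same number, 12 of them over 0.1. For 39 pairs of other numbers they correlated at −0.83 to 0.75 (median −0.38), 13 of them over 0.1. Deviations cancel out within a group, and those of the untreated p38α∆ arrays mirror each other, so negative values between numbers are partly built in. The contrast of the medians therefore does not show that the numbers pair the samples. Pairs within number 4 lay at 0.02 to 0.31, while array 2 of TGF-β-treated p38α∆ MSCs correlated at 0.64 to 0.75 with the arrays numbered 3. With no replicate block, 602 genes passed for TGF-β in WT MSCs in place of 1604, 624 in p38α∆ MSCs in place of 1436, and 14 in place of 77 between the treated genotypes. Over all genes, 75 passed for TGF-β in p38α∆ MSCs with only those 5 arrays and 360 without the arrays numbered 3. Between the treated genotypes it was 7 to 113 with each array left out and 1 without the arrays numbered 3. The causes were not tested.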

Other observations

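Among genes outside the list, those whose log2 values followed the members' mean most closely over the 12 arrays were Kcnj2 (Pearson r 0.93), Lpar4 (0.93), Gins2 (0.93), Tmem126b (0.92), Tk1 (0.92), Ipp (0.91), Zfp982 (0.91) and Mtm1 (0.91). Gins2 and Tk1 act in DNA replication and nucleotide supply. Zfp982 and Mtm1 stayed at or below 2.81 and 3.49, near the bottom of the scale. They were picked from 17097 genes for their likeness, over arrays that share groups and numbers, and are given as a description.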
